A study of Saccharomyces cerevisiae with 20 samples.

Results

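Single substitutions of the last residues of histone H4, from position 93 to its end, were followed through ageing of a pooled culture of the budding yeast Saccharomyces cerevisiae. They were chosen by name from the table that pairs barcodes with mutations: every strain with 1 amino acid of H4 changed at position 93 or later. There were 15 such strains among 422 named strains, and 13 of them were among the 347 strains kept for tests, whose counts averaged 10 or more over the 20 libraries. Names give the original residue, its position and its replacement, so that H4G94A carries alanine in place of glycine 94. All strains derive from JDY86, in which the hht1-hhf1 gene pair had been replaced by NatMX4, and a synthetic H3 and H4 gene pair with URA3 stood at hht2-hhf2. The synthetic pair was therefore the sole source of H4 in a cell, with the substitution in the mutants and without one in the wild-type control strain. Each strain was 1 entry of the pool, identified by an up and a down barcode. The pool was grown in rich medium (YPD), diluted into fresh YPD and left shaking, and aliquots were taken at days 0, 1, 2, 3, 5, 7, 14, 24, 34 and 44. A Percoll density gradient separated the cells of each aliquot into quiescent and non-quiescent ones, whose barcodes were then counted apart. There were thus 20 libraries from 1 culture, 1 per fraction and day, and no replicate cultures.

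Histone H4 pairs with H3, and 2 such pairs form the tetramer at the centre of the nucleosome, onto which dimers of H2A and H2B dock. The end of H4 follows the third helix of its histone fold and runs along the docking domain of H2A, where residues of H4 form a short strand beside one of H2A. Yeast cells that exhaust their glucose stop dividing, and a dense subpopulation becomes quiescent, with condensed chromatin and a long capacity to resume growth, whereas the lighter non-quiescent cells lose that capacity sooner. A barcode count reports how much DNA of a strain was present, not whether its cells were alive.

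The barcodes below are each 20 bases long and written 5′ to 3′ in lower case as the deposited table gives them. They belong to the strains on which the results turn. These are the 3 substitutions of tyrosine 98, of which 2 gave no count, and the most depleted strain, H4L97A. The others had the lowest (H4G99A) and the 2 highest (H4F100A and H4G94A) log2 differences between the quiescent and the non-quiescent fraction late in the culture.
H4L97A, up: tatagtatgggacatgcctg
H4L97A, down: ccatgatatgaacgtagagc
H4Y98A, up: tcaggtgagtcattggctct
H4Y98A, down: aggaacatcttggcaatgac
H4Y98E, up: ggtccatatttagcaatccc
H4Y98E, down: gatgtaccttcacgactctg
H4Y98F, up: tatggaacgacatccgagcc
H4Y98F, down: agcacaccattgaattgacc
H4G94A, up: ccacacctgagaatttgcta
H4G94A, down: tgatccgtcacatctcttag
H4G99A, up: cagctctatccattagtgtg
H4G99A, down: gcagagttgacaatactgga
H4F100A, up: aagctctcatcaggagtgtg
H4F100A, down: ttatatccgcgcaggcgatg
The up barcodes of the 15 strains differed from that of every other named strain at 6 bases or more, and the down barcodes at 7 or more.

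Libraries held 126647 to 337544 counts, and the 13 strains together took between 3.55% and 7.08% of the counts of kept strains. The median count among the 13 strains was 218 in the shallowest library, quiescent day 24, and 700 in the non-quiescent library of day 44. In that shallowest library 12.4% of the counts came from down barcodes, against 32.1% to 49.4% in the other 19. At day 5 the labels and the values went apart. Across the kept strains the quiescent library of day 5 was most like the non-quiescent library of day 3 (Pearson r 0.973, across strains) and the non-quiescent one of day 5 was most like the quiescent one of day 3 (r 0.983), with r 0.911 between the day 5 libraries themselves. Day 5 entered none of the tests. Levels below are counts per 1000000 counts of kept strains, written CPM. Log2 differences are relative to the typical strain of the pool, since TMM scaling assumes that most strains hold their share. Most strains were, however, called changed in the first days (188 of 347, 88 higher and 100 lower). Most also differed between the fractions late in the culture (227 of 347, 113 higher and 114 lower).

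No barcode was counted for the substitutions of tyrosine 98 by alanine and by glutamate. H4Y98A and H4Y98E had 0 counts in all 20 libraries, day 0 included, of 2945392 counts of named strains, which allows each a share of up to 1.02 per 1000000 of that total (counting error only). They were 2 of the 15 listed strains (13.3%), and 68 of the 422 named strains (16.1%) were at 0 throughout, a similar share. Whether they had entered the pool cannot be told from these libraries. H4Y98F, whose phenylalanine keeps the aromatic ring of tyrosine without the hydroxyl group, had 28065 counts, the second highest total of the 13 kept strains after H4Q93E at 31321. H4L97A, with alanine in place of a leucine, was the scarcest kept strain at 392 counts in all, and no other kept strain of the end of H4 had under 2879.

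The first days, which include growth after the dilution, split the strains into 10 that gained share, 1 that lost it and 2 that did neither. Days 1 to 3 were compared with day 0 over the 8 libraries of both fractions, with fraction as a term (edgeR quasi-likelihood test, Benjamini-Hochberg adjusted p under 0.05 over 347 strains). The 2 fractions of a day came from 1 aliquot but were not paired in this test and counted as independent. The start was thus 1 aliquot, and the p-values hold no spread between starting aliquots. A rise was called for 25.4% of all strains tested and a fall for 28.8%. Of the 13 strains, 10 rose and 1 fell, with a median of 0.71 on the log2 scale, beside a median of 0.03 over all 347. H4G102A, altered in one of the last glycines, rose the most, by 1.23 ± 0.18 (SE), which is 2.35-fold (edgeR adjusted p = 0.000711). It stood at 909 CPM in the quiescent and 993 CPM in the non-quiescent library of day 0, and at 2001 to 2468 CPM and 2072 to 2528 CPM in the 3 following days. In neither fraction did the later libraries overlap with that of day 0.

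H4Y98F rose by 1.06 ± 0.25 (edgeR adjusted p = 0.00782), and in the non-quiescent fraction it went from 4702 CPM at day 0 to 12898, 14409 and 16034 CPM at days 1, 2 and 3. In the quiescent fraction it rose less, from 5657 CPM to 9557, 9063 and 8375 CPM. Its log2 change was 1.66 in the non-quiescent libraries alone and 0.59 in the quiescent ones alone. H4T96D, with an acidic residue in place of threonine 96, rose by 1.01 ± 0.20, and H4Q93E, with glutamate in place of glutamine 93, by 1.00 ± 0.21. The other 6 strains that rose were H4T96A at 0.89, H4Q93A at 0.80, H4G101A at 0.71, H4G94A at 0.70, H4R95A at 0.68 and H4R95K at 0.47, with edgeR adjusted p between 0.00488 and 0.0230. The wild-type strain stood at 0.29 ± 0.14 in the same test (edgeR adjusted p = 0.109). With the wild type as the reference, 6 strains rose and 2 fell, H4L97A and H4F100A. The rises of H4G94A, H4R95A, H4R95K and H4G101A lost their calls. The shares of all strains called, given above, belong to the fit with TMM scaling and not to this one.

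H4L97A moved the other way. It held 714 CPM (110 counts) in the quiescent and 500 CPM (63 counts) in the non-quiescent library of day 0, then 107, 96.3 and 190 CPM in the quiescent and 125, 78.6 and 28.9 CPM in the non-quiescent libraries of days 1, 2 and 3. All 6 later values lay below both starting values. Its difference was -2.58 ± 0.40, a fall to 0.167 of its starting share (edgeR adjusted p = 0.00123), and 25 of the 347 strains had a lower one. H4F100A, which lacks the aromatic ring of phenylalanine 100, stood at -0.27 ± 0.19 (edgeR adjusted p = 0.254) and H4G99A at -0.02 ± 0.42 (0.968).

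The calls depended on which fraction was used. The 10 strains had positive values in both fractions, from 0.34 to 1.22 in the quiescent libraries alone and from 0.41 to 1.66 in the non-quiescent ones, but the quiescent libraries alone gave 1 call up (H4G102A) and 1 down (H4L97A), and the non-quiescent ones 8 and 1. Without the non-quiescent library of day 0 the comparison rests on the quiescent libraries, and the same counts of 1 and 1 were obtained. Without the quiescent library of day 0, 9 strains rose and 1 fell. No count over all strains stands beside those of these fits. A general loss of calls with fewer libraries can thus not be told from one of these strains. For H4G99A the fractions went apart, at 0.80 in the quiescent (edgeR adjusted p = 0.303) and -0.64 in the non-quiescent libraries (0.223).

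Late in the culture, most of these strains held a lower share of the quiescent than of the non-quiescent fraction. Over days 14, 24, 34 and 44, with day as a block, 8 of the 13 strains were lower in the quiescent fraction and 2 were higher, with a median log2 difference of -0.80, beside a median of 0.05 over all 347 strains. In all strains tested, 32.9% were called lower and 32.6% higher in the quiescent fraction (edgeR adjusted p under 0.05), so that the count of 8 stands above that background and the count of 2 below it. The wild type stood at 0.11 ± 0.10 (edgeR adjusted p = 0.383) and was higher in the quiescent fraction on each of the 4 days by 0.01 to 0.16.

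H4G99A had the lowest log2 difference between the quiescent and the non-quiescent fraction among the 13 strains. It was at 617, 477, 229 and 244 CPM in the quiescent libraries of days 14, 24, 34 and 44 and at 1253, 932, 1004 and 888 CPM in the non-quiescent ones, without overlap. The difference was -1.24 ± 0.23, or 2.35-fold (edgeR adjusted p = 0.00449). The order was the reverse at days 2, 3 and 7, when H4G99A had 1504, 1966 and 2166 CPM in the quiescent against 576, 614 and 1022 CPM in the non-quiescent fraction. That earlier difference was not tested.

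The glutamine and arginine substitutions just before and within the strand that faces H2A were also lower in the quiescent fraction late in the culture. H4Q93E was at 8176, 5401, 3960 and 4295 CPM in the quiescent and at 11973, 12608, 14057 and 12475 CPM in the non-quiescent libraries of the 4 late days, a difference of -1.03 ± 0.17 (edgeR adjusted p = 0.00337). H4R95A, which loses the positive charge of arginine 95, was at 3845, 1999, 1634 and 1810 CPM against 5353, 4776, 4832 and 4720 CPM. H4R95K, which keeps a positive charge, was at 5143, 2742, 2067 and 2402 CPM against 6574, 5909, 5813 and 6062 CPM. In each of these strains every late quiescent value lay below every late non-quiescent value. The differences were -0.91 ± 0.13 for H4R95A and -0.81 ± 0.14 for H4R95K (edgeR adjusted p = 0.00202 and 0.00362).

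The others with a lower quiescent share were H4T96A at -0.83 ± 0.18, H4Q93A at -0.80 ± 0.14, H4G102A at -0.72 ± 0.17 and H4T96D at -0.67 ± 0.09, with edgeR adjusted p between 0.00197 and 0.0114. Each of the 8 was lower in the quiescent fraction on all 4 late days. In the quiescent library of day 24, where down barcodes were few, H4G102A had 42 up and 27 down counts and H4T96D 114 and 21. Their values there are thus lowered, though both calls held without that library and with each barcode alone. H4T96A lost its call when the down barcode was used alone (edgeR adjusted p = 0.0539). H4L97A stood at -0.87 ± 0.49 (0.158) on 2 to 8 counts per late quiescent library. H4Y98F, at -0.28 ± 0.11 (0.0595), passed the threshold under 5 of 15 other settings, among them DESeq2 and the wild type as the reference.

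H4G94A and H4F100A were the exceptions, with higher shares in the quiescent fraction. H4G94A was at 5072, 6117, 8034 and 7853 CPM in the quiescent and at 4113, 4205, 3964 and 4558 CPM in the non-quiescent libraries, a difference of 0.92 ± 0.18 (1.89-fold, edgeR adjusted p = 0.00542). H4F100A was at 6306, 9959, 7487 and 7630 CPM against 4507, 4843, 5171 and 4539 CPM, a difference of 0.96 ± 0.15 (1.94-fold, edgeR adjusted p = 0.00250). Its 9959 CPM at day 24 came from 1031 up and 55 down counts, in the library where down barcodes were few. That value is thus raised by the up barcode, though the call held with each barcode alone. The fractions did not overlap in either strain. H4G101A showed no call, at 0.05 ± 0.10 (edgeR adjusted p = 0.683), and was higher in the quiescent fraction on 2 of the 4 days. These 10 calls came from libraries whose error is the scatter of serial samples about 1 culture, with 3 residual degrees of freedom per strain.

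By day, the centred log2 ratio of quiescent to non-quiescent counts had a median below 0 among the 13 strains on every day but day 5, and the median was lowest at days 24 to 44. It was -0.23 at day 0, where single strains ran from -0.63 to 0.39 and 8 of 13 lay below 0. At days 1, 2, 3 and 7 it was -0.33, -0.23, -0.26 and -0.21, with 11, 8, 9 and 9 strains below 0. At day 14 it was -0.34 with 11 below, close to day 1, and at days 24, 34 and 44 it was -0.71, -0.91 and -0.89, with 10, 11 and 10 below. The change of the median over days was not tested. H4G94A went from -0.04 at day 0 and -0.04 at day 7 to 0.32, 0.79, 1.37 and 1.09. H4R95A went from 0.36 at day 0 and -0.17 at day 7 to -0.46 at day 14, -1.22 at day 34 and -1.08 at day 44. At day 5, where the libraries resembled the opposite fraction of day 3, H4T96D stood at 1.23, between -1.05 at day 3 and -0.71 at day 7, and H4Y98F at 0.95, between -1.05 and -0.21.

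Change over stationary phase was then measured as the slope of each strain's share from day 7 to day 44, in log2 units per 10 days. In the quiescent fraction 1 of the 13 strains rose and 5 fell, whereas 17.9% of all strains tested rose and 22.8% fell (edgeR adjusted p under 0.05). The median slope was -0.18, beside 0.01 over all 347. The wild type had a slope of 0.10 ± 0.07 (edgeR adjusted p = 0.254).

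H4G94A rose. Its quiescent level was 3665 CPM at day 7 and then 5072, 6117, 8034 and 7853 CPM, a slope of 0.42 ± 0.08 (edgeR adjusted p = 0.00571), and 22 of the 347 strains had a higher one. H4F100A had a slope of 0.24 ± 0.10 that did not pass (0.0983), and passed in the fits without day 24 and without day 44.

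H4G99A and H4L97A fell fastest. H4G99A went from 2166 CPM at day 7 to 617, 477, 229 and 244 CPM, a slope of -0.75 ± 0.15 (edgeR adjusted p = 0.00862). H4L97A went from 16 counts at day 7 to 8, 6, 5 and 2 counts, a slope of -0.72 ± 0.21 (0.0297), which was not called by DESeq2. The fall of H4L97A thus rests on very few counts.

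H4R95K, H4R95A and H4Q93E fell together. H4R95K went from 7085 CPM at day 7 to 2402 CPM at day 44, H4R95A from 4436 to 1810 CPM and H4Q93E from 10267 to 4295 CPM. Their slopes were -0.35 ± 0.07, -0.29 ± 0.07 and -0.26 ± 0.06 (edgeR adjusted p = 0.00949, 0.0119 and 0.0159). H4T96A at -0.19 and H4Q93A at -0.18 did not pass (0.135 and 0.122), and H4T96D, H4Y98F, H4G101A and H4G102A lay between -0.07 and 0.06. All of these calls were lost without the quiescent library of day 7, when 0 of the 13 strains passed and the 6 strains kept their direction with edgeR adjusted p from 0.0754 to 0.246. Over all 347 strains 32 passed in that fit, against 141 with day 7.

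In the non-quiescent fraction levels were nearly flat over the same days. None of the 13 strains, and 0 of 347 in all (0%), had a slope past the threshold in edgeR, and DESeq2 called 0 as well. At an unadjusted p under 0.05 there were 37 strains, 0 of them at the end of H4. Slopes of 12 of the 13 strains lay between -0.08 and 0.05 per 10 days, and that of H4L97A was -0.22 ± 0.19 (edgeR adjusted p = 0.679) on 15 counts at day 7 and 5 at day 44. H4G99A, for example, was at 1022 CPM at day 7 and 888 CPM at day 44.

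The difference between the slopes of the fractions was tested over the 10 libraries of days 7 to 44. It passed for 4 of the 13 strains, where 25.4% of all strains passed, a similar share. H4G94A gained 0.37 ± 0.08 per 10 days more in the quiescent fraction (edgeR adjusted p = 0.0221). H4R95K, H4Q93E and H4R95A lost 0.32 ± 0.08, 0.26 ± 0.08 and 0.25 ± 0.07 more there (0.0294, 0.0478 and 0.0418). H4G99A had the largest value, -0.64 ± 0.20, which did not pass (0.0568) and passed under 8 of 17 other settings. The 4 calls were all lost without day 7 of either fraction or without the non-quiescent library of day 14, and 1 of the 13 strains passed without the quiescent library of day 14 or without either library of day 34.

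From day 0 to day 44 the strains ended between a near loss of H4L97A and a gain of H4G94A. The ratio of quiescent counts, centred on the median strain, has no test, and its 95% interval (Clopper-Pearson) covers counting error only. H4L97A went from 110 to 2 counts, a log2 ratio of -5.52 (-8.58 to -3.63), and 11 strains of 347 lay lower. H4G99A followed at -1.56 (-2.15 to -1.01). H4G94A went from 417 to 1128 counts, at 1.70 (1.53 to 1.86), with 16 strains above it, and H4F100A stood at 1.16 (1.01 to 1.30).

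The other ratios lay between -0.77 for H4R95A and 0.52 for H4G101A, and the wild type was at 0.41 (0.29 to 0.54). Relative to the wild type, 10 of the 13 strains lay lower at day 44. Most kept strains did so too: over the whole pool 232 lay below the wild type in this ratio and 114 above it. The count of 10 thus does not set these strains apart from the pool. The ratio includes the rise of the first days, and for some strains it lay nearer 0 than the ratio counted from day 7: H4Q93A was at -0.37 from day 0 and at -0.63 from day 7, and H4R95K at -0.55 and -1.24. The up and down barcodes, counted in separate reactions, gave ratios of the same sign in 11 of the 13 strains.

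At 3 positions the pool held a pair of kept substitutions of 1 residue, whose ratio within a library needs no scaling. The slope of this ratio in the quiescent libraries of days 7 to 44 passed for 0 of the 3 pairs, where 13.2% of 121 such pairs in both histones passed (limma, adjusted p under 0.05). H4Q93A against H4Q93E, neutral against acidic, changed by 0.08 log2 units per 10 days (95% interval -0.08 to 0.24, limma adjusted p = 0.443). H4R95A against H4R95K, without and with a positive charge, changed by 0.06 (-0.09 to 0.22, adjusted p = 0.533), and H4T96A against H4T96D by -0.17 (-0.42 to 0.09, adjusted p = 0.319). None of these intervals shows that the strains of a pair behaved alike.

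By position, the 6 strains of residues 95 to 98, in the strand beside H2A, all had slopes below 0 in the quiescent fraction. So did 16 of the 19 kept strains of residues 76 to 92, and 169 of all 347 strains. Of the 6 strains, 3 were called, H4L97A on 16 counts or fewer per library, whereas H4T96D at -0.02 and H4Y98F at -0.04 lay near 0. The median fraction difference of the 6 strains was -0.82. The 4 strains of residues 99 onward were spread most widely, from -1.24 for H4G99A to 0.96 for H4F100A in the fraction difference. By residue, the 4 glycines replaced by alanine did not move as a group: H4G94A rose in the quiescent fraction, H4G99A fell, and H4G101A at 0.06 and H4G102A at -0.07 had no call. Of the aromatic residues, phenylalanine 100 was represented by H4F100A and tyrosine 98 by H4Y98F, so that no alanine strains of both could be compared.

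The preceding stretch of H4, residues 76 to 92, served for comparison, with 19 kept strains of 23. In the quiescent fraction 0 of these rose and 10 fell from day 7 to day 44, with a median slope of -0.30, and their median fraction difference late in the culture was -1.11, with 13 called lower and 2 higher. The stretches went further apart in the first days: 2 of the 19 strains rose and 7 fell, with a median of 0.00, against 10 and 1 of the 13. Among all 112 other kept H4 single substitutions, 39 rose and 27 fell in the first days, and 40 were higher and 36 lower in the late quiescent fraction. These counts describe the lists, and no test was made between them.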

How the data were processed

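The authors amplified up and down barcodes of each strain in separate reactions, sequenced them on an Illumina instrument and counted them with get_seqs_from_fastq and match_barcodes_to_strain. The deposited values are raw counts of reads per barcode and library, without molecular identifiers. A deposited table of log2 values made by the authors from these counts was not used. Here the up count was added to the down count of each strain, and strains averaging 10 or more counts over all libraries were kept. Tests were run over all 347 kept strains in edgeR 4.0.16 (TMM, quasi-likelihood F-test) and, for ratios of paired strains with 0.5 added to each count, in limma 3.58.1, with Benjamini-Hochberg adjustment. The scripts were tested on simulated data. The standard error is the log2 effect over the root of its F statistic. Days are serial samples of 1 culture, taken as independent, so the spread from culture to culture is not in the p-values. Fraction and day came from the labels. Every kept strain with a single substitution at H4 residue 93 or later was named, and the others with their counts. Members, groups of residues and tests were chosen with earlier results of these data known. Alternatives were other scalings, DESeq2 1.42.0, no filter, each barcode alone, each library left out and other start or end days. R 4.3.3, Python 3.11.15, numpy 2.4.6, pandas 2.3.3 and scipy 1.17.1 were used.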

Additional observations from a re-analysis of the deposited data

Results flagged for a closer look

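The slope from day 7 to day 44 differed between the quiescent and the non-quiescent fraction, by the test of the interaction of fraction with day, in 4 of the 13 strains (88 of 347 over all strains, 25.4%). The count of 4 was thus close to the share over all strains. The differences, quiescent less non-quiescent in log2 units per 10 days, were 0.37 for H4G94A, -0.32 for H4R95K, -0.26 for H4Q93E and -0.25 for H4R95A. Each fraction contributed 5 libraries of 1 culture, and 0 of the 13 strains passed without day 7 of either fraction or without the non-quiescent library of day 14.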

How the results depend on the processing

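The number of H4 C-terminal strains past the threshold changed mainly when a library was left out. Leaving out each library in turn gave 0 to 7 strains for the slope in the quiescent fraction (6 with all libraries), 0 to 5 for the difference of slopes (4 with all), 2 to 11 for the change from day 0 to days 1 to 3 (11 with all) and 10 to 11 for the late difference between fractions (10 with all). It gave 0 for the slope in the non-quiescent fraction and for the pairs, as with all libraries. The change of the first days gave 2 strains from the quiescent libraries alone, where 4 libraries were used. Days 1 and 2 without day 3, an alternative chosen after seeing the data, gave 10. The median ratio of quiescent day 44 to day 0 was -0.23 and that of the non-quiescent fraction was 0.53, the opposite sign. Its other alternatives were all below 0, from -0.64 relative to the wild type to -0.07 with the down barcode alone. These lay within the median counting bounds of the 13 strains, which cover counting error only. No called direction of a single strain or pair turned under any alternative run, where a sign change past the threshold in neither fit was not counted. The tests between fractions paired the libraries of each day, as a block. The labels carry no replicate numbers, so no other pairing was tried. With 1 culture, counts of 20 or fewer for H4L97A after day 3 and few residual degrees of freedom, these data give no spread between cultures.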
